A study of Drosophila melanogaster with 2 samples.

Results

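The proteasome subunit genes of Drosophila melanogaster were examined for binding of CG11247, a C2H2 zinc finger protein, in whole embryos. Genes were taken from the Ensembl annotation of the fly genome when their symbol named a canonical subunit: Prosalpha1 to Prosalpha7, Prosbeta1 to Prosbeta7, Rpn followed by digits only, or Rpt1 to Rpt6. This gave 32 of 13986 protein-coding genes, of which 14 encode the core particle and 18 the regulatory particle. The flies were transgenic and expressed CG11247 as a fusion with enhanced GFP, and chromatin was precipitated with an antibody to GFP. The labels give 1 group, with 2 biological replicates of whole embryos aged 0 to 24 h and DNA sheared by sonication to 200 to 800 bp. All cell types of the embryo were pooled in each library, so binding in some cells and weak binding in all cannot be told apart. The control that the labels point to was not analysed here, so DNA that comes down with any antibody and DNA held by CG11247 cannot be told apart.

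The proteasome degrades proteins that carry ubiquitin chains. Its barrel-shaped core has outer rings of alpha subunits, which form the gate, around inner rings of beta subunits, of which Prosbeta1, Prosbeta2 and Prosbeta5 carry the caspase-like, trypsin-like and chymotrypsin-like active sites. The regulatory particle caps the core: its base holds the Rpt ATPases, which unfold the substrate, with the scaffolds Rpn1 and Rpn2 and the ubiquitin receptors Rpn10 and Rpn13, and its lid holds Rpn11, which removes the ubiquitin chain, among scaffold subunits.

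The files are lists of peaks that the authors ranked by the irreproducible discovery rate (IDR), a measure of how well the rank of a peak matches between a pair of inputs. A peak of a thresholded list is called passing. Passing peaks had a −log10 IDR of 2 or more, or an IDR no higher than 0.01. The pooled list of both replicates held 4495 passing peaks among 137752 ranked peaks. Replicate 1 held 3010 among 109282 and replicate 2 held 2695 among 125735. A gene was called bound when a passing summit, the highest point of a peak, lay within 500 bp of any of its transcription start sites (TSS). The signal of a peak is the authors' own score, has no fixed range and cannot be compared across lists. Read numbers are unknown, so no depth stands behind single values.

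Of the 32 proteasome genes, 10 were bound in the pooled list (31.2%), beside 2599 of all 13986 protein-coding genes (18.6%). Among the stronger peaks alone, those above the median signal, 4 members were bound (12.5%), beside 12.1% of all genes, so the gap rested on the weaker passing peaks. The core particle had 4 bound genes of 14 (28.6%), which were Prosalpha3, Prosalpha7, Prosbeta1 and Prosbeta2. The regulatory particle had 6 of 18 (33.3%), which were Rpt5 and Rpn13 of the base and Rpn3, Rpn5, Rpn6 and Rpn12 of the lid. The alpha ring and the beta ring each had 2 bound genes of 7, the base had 2 of 10 (20%) and the lid had 4 of 8 (50%). Genes are not replicates, so these gaps were not tested. The spread between replicates is the measure of error here, and it was wide: 4 proteasome genes were bound in replicate 1 (12.5%, beside 13.9% of all genes) and 7 in replicate 2 (21.9%, beside 13.5%). The mean share over the replicates was 17.2 ± 6.63% (SD, n = 2), against 13.7 ± 0.288% for all genes. The gap between these means was smaller than the spread of the proteasome genes between replicates. The core had 2 bound genes in each replicate (14.3%), but not the same genes. The regulatory particle had 11.1% and 27.8%, so core and regulatory particle did not differ beyond the spread between replicates. In replicates 1 and 2 the lid had 25% and 37.5% bound, both below its pooled share, and the base had 0% and 20%.

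**Figure D1:**
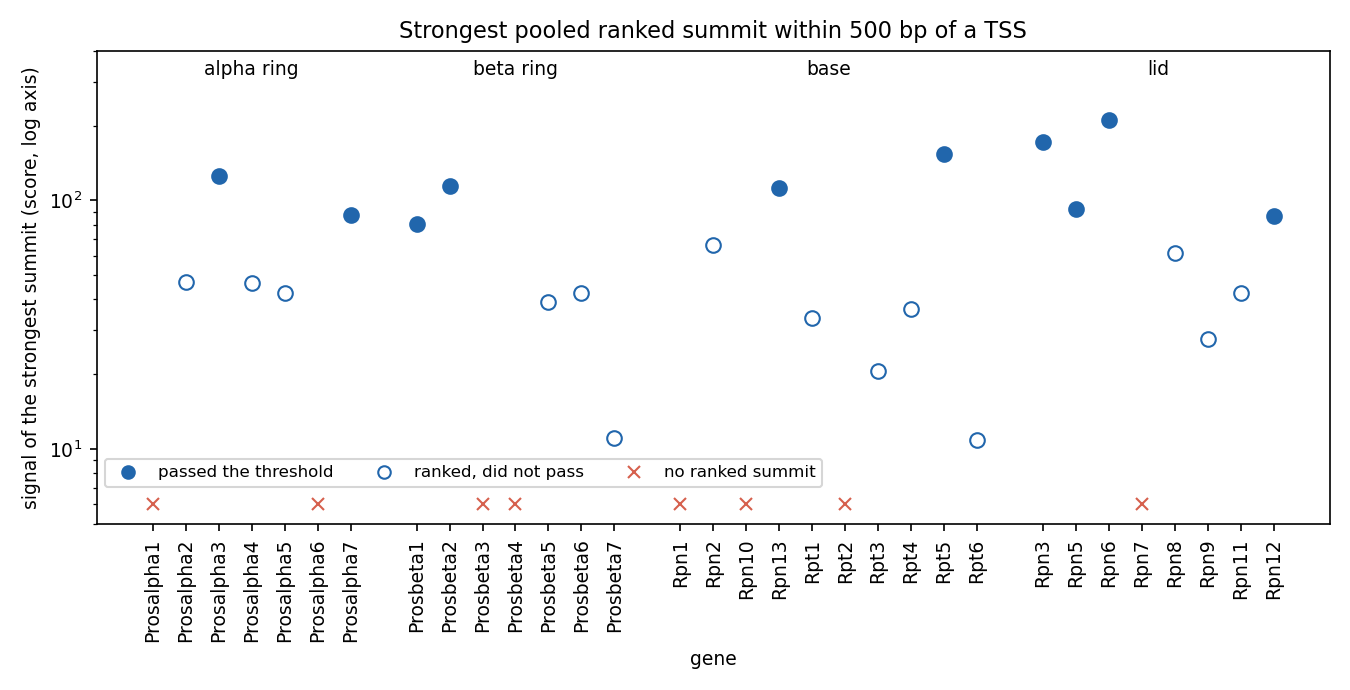
Signal of the strongest pooled ranked summit within 500 bp of a TSS for each of the 32 proteasome genes, on a log axis and grouped by place in the complex. Filled circles passed the threshold and lie between 80.7 and 210.6, open circles were ranked but did not pass and lie at 66.3 or below, and crosses at the foot of the axis mark the 8 genes with no ranked summit there and have no signal.

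The DNA at bound and unbound promoters is shown to make the elements visible that several of the promoters share. Sequences are from the RefSeq copy of the FlyBase release 6 genome, which is dm6, on the plus strand, which is the sense strand of these 7 genes. Capitals mark the DNA replication-related element TATCGATA, its shorter form CGATA on either strand, or, in Rpn5, the Motif 7 core CANCNCTA and the TATA box TATAAA. The first 4 are centred on the passing summit and cut short soon after an annotated UTR begins. They are Rpt5 (chr3R:23752820-23752890), Prosbeta2 (chr3L:14999686-14999886), Rpn12 (chr3L:16582800-16583000) and Rpn5 (chr3R:5789158-5789343), which holds neither form of the element.
Rpt5: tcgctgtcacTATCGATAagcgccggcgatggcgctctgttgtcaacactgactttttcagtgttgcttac
Prosbeta2: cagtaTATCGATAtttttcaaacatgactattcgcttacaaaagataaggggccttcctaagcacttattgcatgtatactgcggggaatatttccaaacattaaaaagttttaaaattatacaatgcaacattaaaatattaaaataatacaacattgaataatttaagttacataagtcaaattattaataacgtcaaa
Rpn12: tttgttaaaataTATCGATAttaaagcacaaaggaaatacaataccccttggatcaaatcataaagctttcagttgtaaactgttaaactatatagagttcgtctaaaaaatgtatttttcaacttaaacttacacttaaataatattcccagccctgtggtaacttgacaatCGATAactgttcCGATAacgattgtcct
Rpn5: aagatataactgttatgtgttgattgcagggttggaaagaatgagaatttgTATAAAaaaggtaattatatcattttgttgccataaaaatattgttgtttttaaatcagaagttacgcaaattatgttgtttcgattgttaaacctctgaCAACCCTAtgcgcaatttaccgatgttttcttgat
The element downstream of the Rpn3 start is given with 11 bases on each side (chr2L:19051855-19051884).
Rpn3: accgtaaaacgTATCGATAaattgaaacgt
Prosalpha6 and Rpn10 are the members farthest from any ranked summit, and the bases around their starts are given for contrast (chr2L:10221250-10221365 and chr3L:21536899-21537014). Prosalpha6 holds the full element without being bound, and Rpn10 holds the short form alone.
Prosalpha6: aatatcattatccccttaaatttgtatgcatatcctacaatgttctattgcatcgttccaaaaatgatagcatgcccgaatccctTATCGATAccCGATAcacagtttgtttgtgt
Rpn10: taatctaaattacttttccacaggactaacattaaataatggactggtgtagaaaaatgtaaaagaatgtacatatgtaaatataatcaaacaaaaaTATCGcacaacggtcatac

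Among the alpha subunits, Prosalpha3 and Prosalpha7 were bound. Prosalpha3 is the counterpart of the yeast subunit whose tail helps to hold the gate shut. Its pooled peak (chromosome arm 2R, 20994670 to 20995013 on dm6) had a signal of 125.9, a −log10 IDR of 2.89 and a summit 58 bp upstream of the TSS, between genes. In replicate 1 it passed with a signal of 73.7, and in replicate 2 its strongest summit had a signal of 54.0 and did not pass (−log10 IDR 1.61). Prosalpha7 had a weaker peak (9847742 to 9848085 on 2R, signal 87.3, −log10 IDR 2.15), 78 bp upstream of the TSS, and passed in replicate 2 instead, with a signal of 56.9 in that list. In replicate 1 its strongest summit had a signal of 31.4 in that list and did not pass (−log10 IDR 0.685). Prosalpha2, Prosalpha4 and Prosalpha5 had ranked summits with pooled signals of 46.98, 46.53 and 42.27 that did not pass, and those summits lay 344 to 473 bp from the start. Prosalpha1 and Prosalpha6 had no ranked summit within 500 bp in any of the 3 lists, pooled or by replicate.

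Of the beta subunits with an active site, Prosbeta1 and Prosbeta2 were bound and Prosbeta5 was not. Prosbeta2 had a peak at 14999614 to 14999957 on 3L with a signal of 114.6, a −log10 IDR of 3.08 and its summit 165 bp upstream of the TSS. It passed in replicate 1 (signal 72.3) and not in replicate 2 (43.6, −log10 IDR 1.06). Prosbeta1 had the weakest bound promoter, with a signal of 80.7 and a −log10 IDR of 2.12, 97 bp upstream of the TSS (16014712 to 16015055 on 2R). It passed in replicate 2 (73.1), whereas the strongest ranked summit within 500 bp in replicate 1 had a signal of 28.5 and lay on the other side of the start, 472 bp downstream. Both promoters held a further passing summit of very low signal, 4.53 at 36 bp downstream of the Prosbeta2 start and 4.15 at an offset of -296 bp from the Prosbeta1 start, each under a peak that overlaps the main peak. Prosbeta5 had a summit 3 bp from its start with a pooled signal of 39.1 (−log10 IDR 0.186) and no ranked summit there in replicate 1. Prosbeta6 and Prosbeta7, which have no active site, had unpassed summits of 42.6 and 11.1, and Prosbeta3 and Prosbeta4 had none.

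In the base, 1 of the 6 ATPase genes was bound. Rpt5, whose yeast counterpart inserts its tail between alpha subunits and helps to open the gate, had a peak at 23752670 to 23753013 on 3R, with a signal of 154.4, a −log10 IDR of 3.52 and its summit 34 bp upstream of the TSS. In replicate 1 it had a signal of 53.0 without passing (−log10 IDR 1.59), and in replicate 2 it passed with 105.2. The other ATPase genes were unbound: Rpt1, Rpt3, Rpt4 and Rpt6 had ranked summits with pooled signals of 33.7, 20.7, 36.4 and 10.8, and Rpt2 had none in the pooled list. Of the ubiquitin receptors, Rpn13 was bound and Rpn10 was not. The Rpn13 summit lay 17 bp downstream of its TSS, in its 5′ UTR (13960215 to 13960558 on 2R, signal 112.4, −log10 IDR 3.02), with 43.8 in replicate 1, unpassed at 1.82, and 74.9 in replicate 2, passed. Rpn10 had no ranked summit within 500 bp in any of the 3 lists, and the nearest in the pooled list was 15855 bp from its start. Of the scaffolds, Rpn2 came nearest to the threshold of all unbound members (signal 66.3, −log10 IDR 1.60), and Rpn1 had no ranked summit in the pooled list.

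The lid held the members with the highest signals. Rpn6, a scaffold subunit that also touches the core, had a pooled signal of 210.6 and a −log10 IDR of 4.08, with the summit 87 bp upstream of the nearer of its 2 annotated starts, in an intron of the longer form (14752186 to 14752529 on 2R). It passed in replicate 1 with 113.4 (rank 1021 of the ranked peaks) and in replicate 2 with 103.4 (rank 922). Rpn3, another scaffold subunit, had 171.3 and 3.72, with the summit 31 bp downstream of a start, in the 5′ UTR (19051649 to 19051992 on 2L). It passed in replicate 1 with 115.6 (rank 991) and in replicate 2 with 64.5 (rank 2016). Rpn6 and Rpn3 were the only members bound in both replicates. Rpn6 had a −log10 IDR of 4.49 in replicate 1 and 3.97 in replicate 2. Rpn3 had 4.66 in replicate 1 but 2.01 in replicate 2, just past the limit of 2.

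Rpn5 and Rpn12, also scaffold subunits of the lid, were bound with lower signals. Rpn5 had 92.8 (−log10 IDR 2.63) at 5789086 to 5789429 on 3R, with the summit 235 bp upstream of its TSS and inside an intron of the gene Hat1. Replicate 1 had its strongest summit at the same distance with a signal of 69.3, but with a −log10 IDR of 0.0891, and did not pass. Replicate 2 passed with 48.1 at a summit 13 bp downstream of the Rpn5 start, 248 bp from the pooled summit, so the pooled summit and the passing summit of replicate 2 lay on different sides of the Hat1 start. Rpn12 had 86.2 (2.29) at 16582728 to 16583071 on 3L, 128 bp upstream of its TSS. It passed in the pooled list and in neither replicate, where signals were 46.4 (1.86) and 40.1 (1.62). Rpn8, the partner of Rpn11 in the lid, fell short of the threshold with 61.4 (1.34), while Rpn11 had 42.3 (0.213) and Rpn9, a scaffold subunit, had 27.8 (0.614). Rpn7, also a scaffold subunit, had no ranked summit in the pooled list.

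Most of the bound proteasome genes passed in a replicate, but few passed in both. Of the 10 bound members, 2 were bound in both replicates (20%), 2 in replicate 1 alone, which were Prosalpha3 and Prosbeta2, 5 in replicate 2 alone (50%) and 1, Rpn12, in neither. Over all 2599 bound genes the shares were 57.6% in both, 14.3% in replicate 1 alone, 12% in replicate 2 alone and 16.1% in neither. The bound members had a median signal of 113.5 (80.7 to 210.6) beside 150.4 over all bound genes, and the part of signal in these shares was not tested. No unbound member was bound in a replicate, beside 147 of the 11387 unbound genes at large (1.29%). The conservative list, which rests on ranking the replicates against each other, held 8 bound members (25%, beside 17.3% of all genes). It kept all 6 of the regulatory particle and 2 of the 4 of the core, with Prosalpha7 and Prosbeta1 absent.

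**Figure D2:**
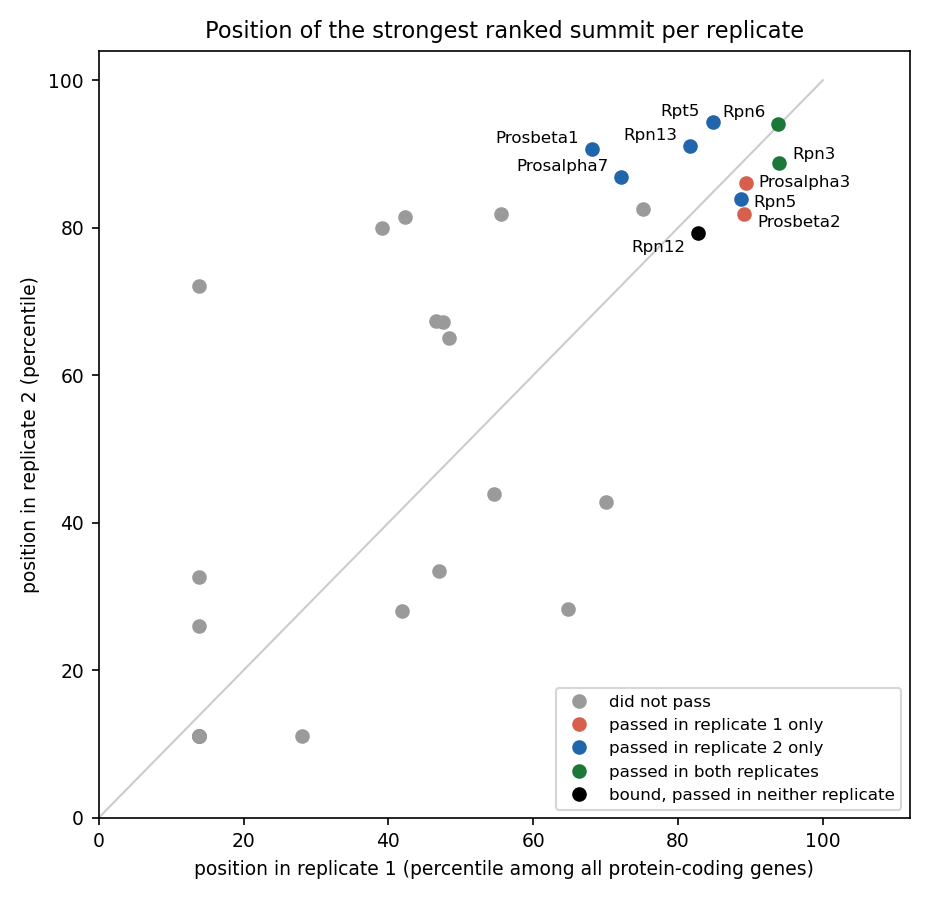
Percentile of the strongest ranked summit within 500 bp of a TSS among all protein-coding genes, in replicate 1 (horizontal axis) and replicate 2 (vertical axis), with 1 point per proteasome gene and genes without a ranked summit at the lowest shared percentile. The 10 bound genes carry names and colours by the replicate in which they passed, and they sit at the upper right, where Rpn6 was at 93.8 and 94.1 and Prosbeta1 at 68.1 and 90.7; the line marks equal positions.

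Ranked summits that did not pass were counted as well. A ranked summit of any strength lay within 500 bp of a TSS in 24 of the 32 (75%), beside 78.4% of all genes, and the median distance to the nearest ranked summit was 178 bp, beside 176.5 bp. Among genes with such a summit, 10 of 24 members were bound (41.7%), beside 23.7%, with 4 of 10 in the core and 6 of 14 in the regulatory particle. Each gene was also placed by the percentile of its strongest ranked summit among all protein-coding genes. The members had a median percentile of 56.7, the core 57.0 and the regulatory particle 53.2, where all genes have 50. This order depended on the distance: the median of the members was 38.46 with summits within 200 bp and 47.9 within 1000 bp, both below 50. The lid had a median of 78.3 in the pooled list, 69.1 in replicate 1 and 81.7 in replicate 2. The base had 38.4, 50.6 and 43.35 in the same order, so it lay below 50 in the pooled list and in replicate 2 only. The median of the members was 48.0 in replicate 1 and 67.3 in replicate 2 (SD 13.7, n = 2), a spread that includes the median of all genes. In the pooled list 11 of the 32 members lay above the 75th percentile, beside 3496 of all 13986 genes. Above the 90th lay 3 of the 32, which were Rpn6, Rpn3 and Rpt5, beside 1399 of all 13986 genes.

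The threshold fell in a gap of the members' values. The members just inside it were Prosbeta1 and Prosalpha7 with a −log10 IDR of 2.12 and 2.15, and just outside were Rpn2 with 1.60 and Rpn8 with 1.34. All other unbound members with a ranked summit were at 0.614 or below. No passing summit lay within 1000 bp of the 22 unbound members; the nearest was 1106 bp away, the median 5546 bp and the farthest 23675 bp. By distance, 9 members were bound with summits within 200 bp (28.1%, beside 13.7% of all genes), with Rpn5 lost, and 10 within 1000 bp, beside 21.9%.

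Bound proteasome genes mostly shared their summit with a neighbour. The TSS of another protein-coding gene lay within 500 bp of the summit in 9 of 10 (90%), beside 55.3% of all bound genes, and all 9 neighbours were on the opposite strand. In 4 of the 10 (40%, beside 26.5%) the neighbour's start was the nearer. These were Rpt5, whose summit was 8 bp from the start of RanBP3, a gene for a Ran-binding protein; Prosbeta1, 24 bp from Rrp42, a subunit of the RNA exosome; Prosbeta2, 120 bp from mRpL39, a mitochondrial ribosomal protein gene; and Rpn5, 126 bp from Hat1, a histone acetyltransferase gene. The member's own start was the nearer for Prosalpha7 (CG1671 at 147 bp), Rpn6 (ave at 163 bp), Rpn3 (l(2)37Bb at 209 bp), Rpn13 (CtsL1, a cysteine protease gene, at 288 bp) and Prosalpha3 (dgt3, a subunit of augmin, at 461 bp). Rpn12 was the only bound member with no neighbour in reach. When a summit was given only to the gene with the nearest TSS, a rule added after the data were seen, 7 members were bound (21.9%, beside 13.9% of all genes), and Prosbeta1, Rpn5 and Rpt5 were lost. Prosbeta2 was retained through the weak summit of signal 4.53.

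**Figure D3:**
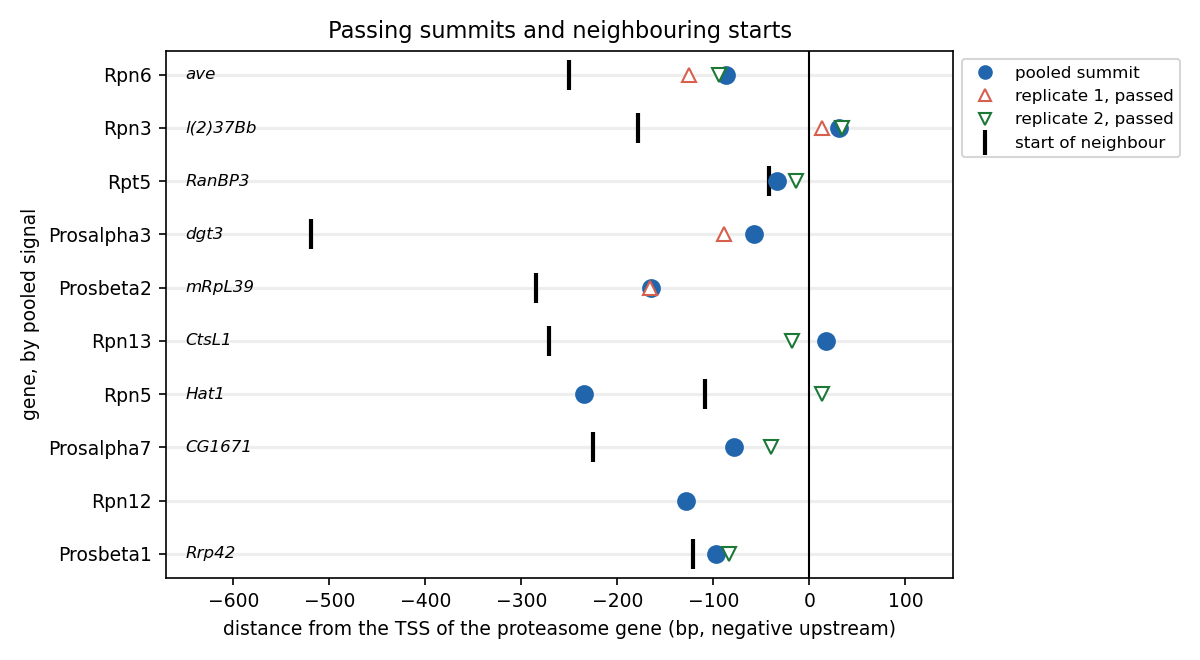
Distance in bp of the passing pooled summit (circles) and of passing replicate summits (triangles) from the TSS of each bound proteasome gene, ordered by pooled signal, with a bar at the start of the neighbour named at the left. Pooled summits lie between 235 bp upstream and 31 bp downstream, and the start of the neighbour coincides most closely with the summit at Rpt5, 8 bp away.

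Divergent neighbours were also counted at all proteasome genes, bound or not. With starts taken as the outermost of each gene, 18 of the 32 (56.2%) had a divergent gene, on the other strand, with a start within 500 bp upstream, beside 26% of all genes. Of those 18, 7 were bound (38.9%), and of the other 14, 3 were bound (21.4%). Over all genes the same shares were 35.2% and 12.8%. The share bound was higher with a divergent neighbour in both sets, and this order was not tested. Rpn6 was counted among the 14 by its outermost start, which lies more than 500 bp from its summit. The start of ave lay 250 bp from its nearer start, on the opposite strand. With the outermost TSS only, 9 members were bound (28.1%, beside 16.6% of all genes), with Rpn6 lost. Divergent members that were not bound were Prosalpha1, Prosalpha4, Prosalpha6, Prosbeta3, Prosbeta4, Prosbeta5, Rpn2, Rpn7, Rpt2, Rpt3 and Rpt4. The summits of bound members had a median offset of -82.5 bp and 8 of 10 lay upstream (80%), beside -113 bp and 84.5% for all bound genes. By chromosome arm, 5 of the 10 members on 2R were bound, 1 of 4 on 2L, 2 of 5 on 3L, 2 of 9 on 3R and 0 of 4 on X. The shares of all genes bound on these arms were 18.9%, 18.7%, 19.5%, 19.4% and 16.7% in the same order.

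The replication-related element TATCGATA stood near most of the bound summits. The element is a palindrome known in Drosophila as the site of Dref, a factor of proliferation and housekeeping genes, and is also read by the insulator protein BEAF-32, for which CGATA is a short site. Either strand was searched within 100 bp of the summit. TATCGATA was found at 6 of the 10 bound members (60%), beside 8.55% of the 1871 passing promoter summits of all genes. The 6 were Prosalpha3, Prosbeta1, Prosbeta2, Rpt5, Rpn3 and Rpn12. Measured on the strand of the gene, the nearest was at Rpt5. There the element ran from 12 to 5 bp upstream of the summit, as in the sequence above. The RanBP3 start lay 8 bp upstream of that summit, inside the element. At Prosbeta1 the element was 24 to 17 bp upstream and the Rrp42 start 24 bp upstream. At Prosbeta2 it was 95 to 88 bp upstream and the mRpL39 start 120 bp. Such elements cannot be given to the member alone. At Prosalpha3 it was 37 to 30 bp upstream and the dgt3 start 461 bp. At Rpn3 it was 45 to 52 bp downstream and the l(2)37Bb start 209 bp upstream. Rpn12 had no neighbour in reach. TATCGATA was within 50 bp of the summit in 3 (30%, beside 4.06%), which were Prosbeta1, Rpt5 and Prosalpha3. CGATA, which every TATCGATA contains on both strands, was within 100 bp in 8 (80%, beside 39.8%), and Rpn6, the strongest member, had 6 copies of the short form and none of the full element.

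Other elements were sought in the same windows, 9 motifs in all. The Motif 7 core CANCNCTA was found at 4 members (40%, beside 18.7%), which were Prosalpha3, Prosalpha7, Rpn5 and Rpn6, but within 50 bp of the summit at 0 of 10, beside 9.78%. The TATA box TATAAA was found at 4 within 100 bp (40%, beside 31.4%) and at 2 within 50 bp (20%, beside 18.5%). In the promoter, taken from 250 bases before to 50 after the outermost TSS, it was at 3 of the 10 (30%), below the 45.3% of all bound genes, so its direction changed with the window. GAGAG, the core of the GAGA factor site, was found at 1, Rpn13 (10%, beside 22.5%). The Motif 1 core GGTCACACT, the E-box CAGCTG, the CTCF core AGNNGGCGC and the antioxidant element TGACNNNGC were not found at any of the 10, beside 3.21%, 13.8%, 3.42% and 6.52%. The motifs were searched on both strands, and apart from CGATA within TATCGATA no motif contains another, though matches of different motifs can overlap. The bases within 50 bp of the summit had a median GC content of 30.2% (24.8 to 48.5%), beside 37.6% at all passing promoter summits; the part of base composition in the AT-rich matches was not tested.

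The element was also present in promoters of unbound members. In the 300 bases from 250 before to 50 after the outermost TSS, TATCGATA was present in 12 of 32 members (37.5%), beside 9.36% of all protein-coding genes. The core had 6 of 14 and the regulatory particle 6 of 18. Bound members had it in 7 of 10 and unbound members in 5 of 22 (22.7%), which were Prosalpha5, Prosalpha6, Prosbeta6, Rpn7 and Rpn9. Among the bound, Prosalpha3, Prosbeta1, Rpt5 and Rpn12 had the same element in this window and near the summit. At Prosbeta2, Rpn3 and Rpn13 the element of this window was not near the strongest summit. It began at -10, -197 and -217 bp from the TSS, with those summits at -165, 31 and 17 bp. The window searched at Rpn6 lies at its outermost start and does not cover its summit, which belongs to the nearer start. Of the 12 members with the element 7 were bound (58.3%). Of the 20 without it 3 were bound (15%), which were Prosalpha7, Rpn5 and Rpn6. Over all genes these shares were 27.5% and 17.7%. The Motif 7 core gave a like split: it was in 6 of the 10 bound members (60%) and 3 of the 22 unbound (13.6%). Of the 9 members with Motif 7, 6 were bound (66.7%), and of the 23 without it, 4 were bound (17.4%). Over all genes the shares bound with and without Motif 7 were 32.3% and 16.1%. These splits were not tested. CGATA was in 27 of 32 members (84.4%), beside 47.3%. In contrast, the Motif 1 core was in 5 unbound members (Prosalpha2, Prosalpha4, Prosbeta3, Rpn1 and Rpn7) and in no bound one. Its share was 6.04% of all genes and 8.27% of all bound genes. The antioxidant element, the kind of site read by the factor cnc, was in 5 unbound members (Prosalpha2, Prosbeta3, Rpn1, Rpn7 and Rpt6) and in no bound one. Its share was 8.62% of all genes and of all bound genes. Prosalpha2, Prosbeta3, Rpn1 and Rpn7 are on both lists. On its other strand the Motif 1 core ends in TGACC, which can open an antioxidant element, so the lists are not independent. A match is a description of letters and not of a factor at the site.

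**Figure D4:**
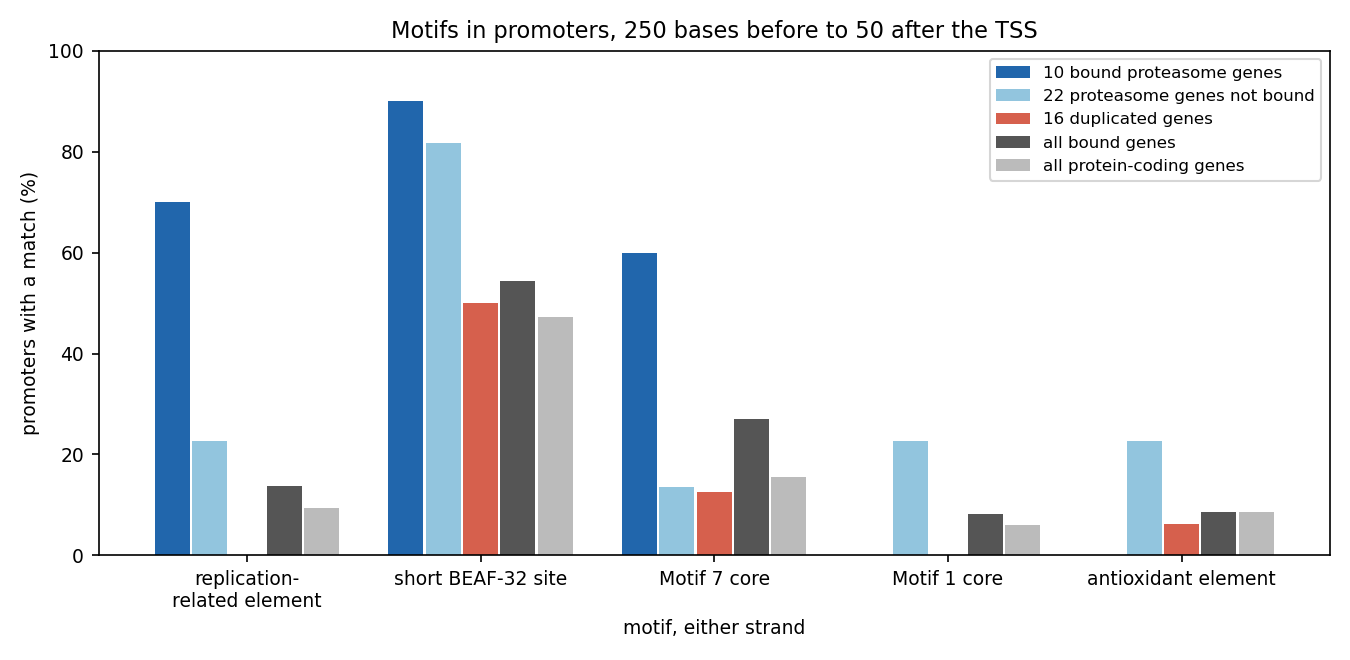
Share in percent of promoters, 250 bases before to 50 after the outermost TSS, with a match to each of 5 motifs on either strand, for bound, unbound and duplicated proteasome genes, all bound genes and all protein-coding genes. TATCGATA, the replication-related element, is in 70% of the bound members, 22.7% of the unbound members and none of the 16 duplicated genes, beside 13.8% of all bound genes.

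The duplicated proteasome genes, copies whose symbols end in R or T with or without a digit and many of which are known from the testis, were examined in the same way. Of 16, none was bound in the pooled list or in either replicate, where 18.6%, 13.9% and 13.5% of all genes were bound. A ranked summit was present at 10 of them, so 6 had none (37.5%, beside 21.6% of all genes), and their median percentile was 35.6, with none above the 75th. The strongest, Prosalpha4T2, had a signal of 56.7 and a −log10 IDR of 1.04. No TATCGATA was found in their promoters, and CGATA was in 8 of 16 (50%), close to the 47.3% of all genes. These genes were named from their symbols alone, and the difference from the canonical genes was not tested.

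Genes that act with the proteasome were counted beside the subunits. From a list of 23 symbols, of which 21 were found, 9 were bound in the pooled list (42.9%, beside 18.6% of all genes). In replicate 1, 6 were bound (28.6%, beside 13.9%), and in replicate 2, 5 were bound (23.8%, beside 13.5%). The conservative list held 6 (28.6%, beside 17.3%), with RpL40, Uch-L5 and p47 absent. The highest signal was at Pomp, the chaperone that assembles the core particle, with 314.0 and a summit 220 bp upstream of its TSS, and it passed in both replicates. The transcription factor cnc, the fly counterpart of the Nrf factors, had 190.5 at a summit 303 bp downstream of the nearest of its starts. It has 10 annotated starts, each of which could meet the rule, and 2 passing summits, the nearer 60 bp from a start. Keap1, the inhibitor of cnc, had 143.9 at 32 bp upstream. Pngl, which removes sugars from misfolded proteins, had 125.1. Among the ubiquitin genes, RpS27A had 161.9, RpL40 had 89.7 and Ubi-p63E had 85.3. RpS27A shares its start with Ip259 on the same strand, 70 bp from the summit, so that peak cannot be given to either gene alone. A stronger summit of Ubi-p63E, with a signal of 179.2 and a −log10 IDR of 3.79, was past the IDR limit in the ranked list but absent from the thresholded list. The remaining bound genes were p47, a cofactor of the segregase TER94, with 81.7, and Uch-L5, the deubiquitinase that binds Rpn13, with 69.1. The Uch-L5 summit lay 3 bp from the start of Jarid2, in its 5′ UTR, and the Ubi-p63E summit was nearer to the start of Sc2, at 130 bp. Neither gene passed in a replicate, but they differed in the ranked lists of replicates 1 and 2. Uch-L5 had a −log10 IDR of 0.0832 and 0.0895 there. Ubi-p63E had 4.45 and 3.02, past the limit of 2, at summits that were absent from the thresholded lists. Both genes were lost when a summit was given only to its nearest gene, which left 7 of 21 bound (33.3%, beside 13.9% of all genes). RpS27A stayed in that count in a tie with Ip259.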

How the data were processed

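Chromatin immunoprecipitation with sequencing (ChIP-seq) was made from whole embryos in 2 biological replicates of 1 group. The deposited files are 8 peak lists on dm6, per the labels and the listing deposited with the files. For each replicate, for the pooled reads and for the replicates set against each other, the authors ranked peaks by IDR and gave a thresholded list, per that listing. It also names an additional input of the thresholded lists that it does not describe. Peak signal is a score that the authors deposited with each peak, and it was used only within a list. The −log10 IDR of a peak is the authors' global value from the ranked lists. The aligner and the peak caller were not given in the sources used here. Read depth is unknown. In the list that ranks the replicates against each other, 8 columns of values per replicate were not used.

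Summits were set against the TSS of protein-coding genes of Ensembl release 115, on assembly release 6, which is dm6. All peaks and genes ended within the chromosome arms of the RefSeq genome used for sequences and motifs. Strongest means highest signal. Motif shares in promoters, divergent neighbours and distances used the 13968 genes on 2L, 2R, 3L, 3R, 4, X and Y. Analyses used Python 3.11.15 with NumPy 2.4.6, and figures used matplotlib 3.10.9. The calls of summits near starts, the signs of offsets and the matching of the antioxidant element were tested on simulated data. The other steps were not.

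With 1 group there is no contrast, and genes are not replicates, so lists are described by counts and medians beside those of all genes, with no test. Error is the spread between the 2 replicate lists. Each member is named, as are the nearest other gene within 500 bp of a bound member's summit and the bound partner genes. Prosalpha4T2 was named after its values were seen. The base was taken as Rpt1 to Rpt6 with Rpn1, Rpn2, Rpn10 and Rpn13, and the lid as the other Rpn genes. The members and lists were chosen with earlier results of these data known. Alternatives were other lists, distances, starts, overlap rules and motif windows, and a rule giving each summit to its nearest gene.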

Additional observations from a re-analysis of the deposited data

How the results depend on the processing

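Of 63 alternatives for the gene counts and medians, 51 stayed close to the main value and 12 moved. Close meant within 1.5 times for counts and within the SD of the replicates for medians. Some alternatives could not move, so the 51 overstate how stable the values are. Restriction to genes with a ranked summit must return the main count, because all 4495 passing pooled peaks were ranked. The medians of the replicates alone were judged by the SD of those same 2 values. With only peaks above the median signal, 4 proteasome genes (12.5%), 1 core gene, 3 regulatory genes and 5 partner genes were bound, beside 12.1% of all genes. With either replicate alone, counts were 4 to 7 for the proteasome, 2 in each for the core, 2 to 5 for the regulatory particle and 5 to 6 for the partners. The conservative list gave 2 core genes. The median percentile was 38.46 with summits within 200 bp and 47.9 within 1000 bp, both on the other side of the 50 of all genes, and 47.97 to 67.32 in the replicates alone. The median offset was -107 to -18 bp in the replicates alone. The number of duplicated genes bound stayed at 0 under each alternative run. The 200 bp distance, the stronger peaks, the outermost TSS and the nearest-gene rule only take genes away, so they could not raise it. Of 18 motif alternatives 4 moved, all with the 50 bp window, which gave 3 members for TATCGATA, 0 for Motif 7, 0 for GAGAG and 2 for the TATA box. The cause of these moves was not tested. No paired analysis was possible because the labels give 1 group. Small counts, a control that was not analysed here and unknown read numbers limit all values.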
